A study of Arabidopsis thaliana with 12 samples.

Results

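Scpl35 (AT5G08260) and scpl46 (AT2G33530) are Arabidopsis thaliana genes of the serine carboxypeptidase-like (SCPL) family. Each was read by 1 probe set annotated to that gene alone, 250517_at for scpl35 and 255842_at for scpl46, so the pair makes up 2 of the 13286 genes that the array annotation names singly. The pair was chosen with signals of these same 12 arrays in view, across all 4 groups. Their levels and differences are therefore given as a description, without a test.

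SCPL proteins share the fold and the Ser-Asp-His catalytic triad of serine carboxypeptidases, enzymes that cut single amino acids from the C-terminal end of proteins and peptides. Plant genomes carry many more SCPL genes than animals or yeast do. Some members have left peptide hydrolysis and act as acyltransferases of plant phenolics, as SNG1 of Arabidopsis does when it makes the leaf sunscreen sinapoylmalate, while BRS1 is known from brassinosteroid signalling.

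The RNA came from aerial rosettes of wild-type seedlings of the Columbia ecotype, 15 days old, that had grown with 12 h of light and 12 h of darkness a day before being kept in constant darkness. Night pulse seedlings received 1 h of white light in the middle of the night and day pulse seedlings the same in the middle of the subjective day, while the night control and day control seedlings were collected at those times without light. Each of the 4 groups holds 3 Affymetrix ATH1 arrays. The labels give CT 6 for the night and CT 18 for the subjective day, which is the reverse of the usual count from subjective dawn, and the groups follow the sample titles. Groups collected at different times in constant darkness can also differ in hours of darkness, which cannot be told apart from time of day here. The sources used here do not say whether the arrays of a group came from separate plants or cultures.

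Signals are normalized intensities on a linear scale (see the processing below), given per array or as mean ± SD over 3 arrays. Log2 differences are limma estimates ± SE over the same arrays. Both genes passed the filter on dim probe sets, whose lowest mean signal kept was 21.75. This value comes from the filter and is not a measured background. A group mean under 21.75 is treated here as having no measured size, so folds against it are written as "at least". Before normalization the trimmed mean signal ran from 65.86 to 176.5 per array. As a measure of RNA integrity, GAPDH control probe sets at the 3' end were 9.29 times as bright as those at the 5' end on replicate 1 of the day pulse. They were 8.75 times as bright on replicate 2 of the day control, and 2.16 to 5.16 times on the other arrays. For actin control probe sets the 3' to 5' ratio was 13.5 to 37.1 over the 12 arrays, highest on night pulse replicate 3, with 16.3 and 27.6 on the 2 arrays of high GAPDH ratio. Of 9 leaf mesophyll markers 1 had a probe set of its own, RCA (rubisco activase), with signals of 7180 to 8680 in the night pulse, 7250 to 8410 in the night control, 6060 to 6880 in the day pulse and 2630 to 4570 in the day control. Of 11 root markers 1 could be read, EXPA7, and its mean lay under 21.75 in all 4 groups.

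**Figure D1:**
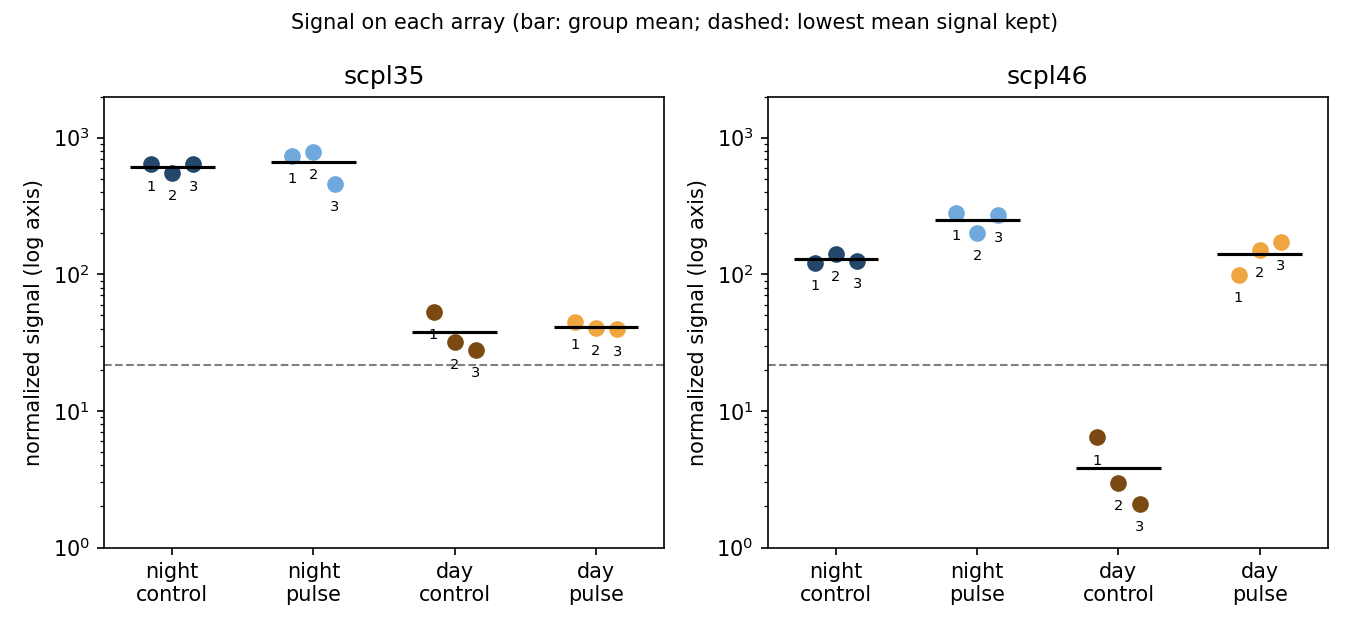
Normalized signal of scpl35 (left) and scpl46 (right) on each of the 12 arrays, on a log axis, with the replicate number under each point, a bar at each group mean and a dashed line at 21.75. Scpl35 splits the night arrays (458.7 to 781.4) from the day arrays (27.75 to 53.21), whereas scpl46 is low in the 3 day controls (2.102 to 6.398) and at 98.15 or more on every other array.

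Scpl35 was high at night and low in the subjective day, whether or not light was given. In the night controls its signal was 641.8 on replicate 1, 554.2 on replicate 2 and 642.1 on replicate 3. In the day controls it was 53.21, 32.01 and 27.75 on replicates 1 to 3. No night control came near a day control: the means were 612.7 ± 50.6 and 37.66 ± 13.6, a 16.3-fold difference, or 4.0 ± 0.25 on the log2 scale (night minus day). As a description of its size, this was the 23rd largest fitted excess of night over day controls among the 13647 probe sets compared, and the 11th with all signals raised to at least 21.75. In that comparison the 2 groups of arrays did not overlap, with night higher, for 31.0% of all probe sets, so a clean separation by itself was common.

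With and without light, scpl35 had similar signals at each time. After the night pulse the signal was 736.8, 781.4 and 458.7 on replicates 1 to 3, a mean of 659.0 ± 175. Replicates 1 and 2 lay above all 3 night controls and replicate 3 below them, so the groups overlapped. The log2 difference from the night control was 0.07 ± 0.25, and it ran from -0.07 without night pulse replicate 2 to 0.31 without night pulse replicate 3. After the day pulse the signal was 44.61, 40.22 and 39.63, a mean of 41.49 ± 2.72. These values fell inside the range of the day controls. The log2 difference was 0.18 ± 0.25, from 0.00 without day control replicate 3 to 0.45 without day control replicate 1. These values do not show that light left scpl35 unaltered, since an SE of 0.25 leaves room for small differences.

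The difference between the night and the day pulse effect on scpl35 was -0.11 ± 0.35 on the log2 scale (night minus day). From high to low the groups were night pulse, night control, then the day pulse, then the day control. Neighbours within a time overlapped, and every night array, lit or dark, lay above every day array. How many of all probe sets split the night from the day arrays in this way was not counted. Between the pulsed groups the means differed 15.9-fold, close to the 16.3-fold between the controls, with which this ratio shares no array.

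The split of scpl35 by time was already present in the signals as deposited. These were 585.3 to 1116.1 on the 6 night arrays and 19.2 to 46.5 on the 6 day arrays. The day arrays were also dimmer in general, with trimmed means of 65.86 to 130.2 against 122.3 to 176.5 at night, and the part of array brightness in the result was not tested. Without normalization the difference between the controls was 4.54 on the log2 scale, where the median over all probe sets was 0.54. With the arrays centred on their medians instead, the difference was 3.81 and the median over all probe sets was -0.19. In a bulk sample of leaves, fewer cells that express a gene and less RNA per cell cannot be told apart.

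Scpl46 had a different pattern: it was under 21.75 in subjective-day darkness and well above that value in the other 3 groups. In the day controls its signal was 6.398 on replicate 1, 2.990 on replicate 2 and 2.102 on replicate 3, all far under 21.75. The deposited signals behind these values were 5.3, 2.2 and 1.7. The GAPDH ratios of these arrays were 2.30, 8.75 and 3.83. Without day pulse replicate 1 and day control replicate 2, scpl46 had log2 differences of 4.48 between the controls and 4.79 after the day pulse. With all arrays these were 4.56 and 4.63. The part of RNA integrity in the result was not tested further.

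After 1 h of light in the subjective day the scpl46 signal was much higher. After the day pulse it was 98.15, 149.8 and 171.0 on replicates 1 to 3, a mean of 139.6 ± 37.5 against 3.830 ± 2.27 in the day controls. All 3 pulsed arrays lay above all 3 controls, as was the case for 22.7% of all probe sets. Because the day control mean was under 21.75, the fold is at least 6.42. The fitted log2 difference was 4.63 ± 0.28, and 2.54 with all signals raised to at least 21.75, so the fitted size depends on values under 21.75. Replicate 1, the lowest of the pulsed arrays, was the dimmest array and the one with a GAPDH ratio of 9.29.

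At night scpl46 was measurable in the dark and higher still after the pulse. The night controls gave 120.6, 141.5 and 124.8 on replicates 1 to 3, a mean of 129.0 ± 11. The night pulse arrays gave 280.7, 202.0 and 269.9, a mean of 250.9 ± 42.6. The groups did not overlap, as for 17.5% of all probe sets with the pulsed arrays higher. The ratio of means was 1.94 and the log2 difference 0.94 ± 0.28, with a range of 0.85 to 1.08 when any 1 array was left out.

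On the log2 scale, scpl46 differed more between lit and dark seedlings in the day than at night. On the linear scale the rises were closer in size, from 3.83 to 139.6 in the day and from 129 to 250.9 at night. The fitted difference between the pulse effects was -3.70 ± 0.40 on the log2 scale (night minus day). With all signals raised to at least 21.75 the same difference was -1.60, and with an offset of 16 it was -2.08, so its direction was the same and its size is not settled. The dark controls differed by at least 5.93-fold and the pulsed groups by 1.80-fold, with night higher in both. The fitted log2 difference between the controls was 4.56 ± 0.28, and 2.46 with raised signals. These comparisons share arrays: the difference between the controls uses the same 6 dark arrays as the pulse effects.

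From high to low, scpl46 ranked night pulse, day pulse, night control and day control. The 3 night pulse arrays lay above the 3 day pulse arrays, with a lowest value of 202.0 against a highest of 171.0. The day pulse and the night control overlapped, and their means of 139.6 and 129.0 were close. Every array of these 3 groups lay above every day control. The share of all probe sets that separate the pulsed groups, or these 3 groups from the day controls, was not counted. RCA was also lowest in the day controls, at a mean of 3920 against 6530 to 7890 elsewhere, and its part in the result was not tested.

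The genes thus had the day control as their lowest group in common, but differed in what light did there. Scpl35 was 41.49 after the day pulse and 37.66 without it, where scpl46 was 139.6 and 3.830. Over the 12 arrays the log2 signals of the pair had a Pearson r of 0.65 and a Spearman rho of 0.59. These 12 points form 4 groups, so the value mostly reflects the group means and is given as a description. By r, scpl46 came after 1452 other probe sets in likeness to scpl35 among 7306.

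Inside groups the pair moved together on some arrays and apart on others. On night pulse replicate 3, scpl35 was 0.48 under its group mean on the log2 scale and scpl46 0.12 above its own. On day pulse replicate 1, scpl46 was 0.46 under its mean and scpl35 0.10 above. On night pulse replicate 1 they lay above their means by 0.20 and 0.18. In all 3 day controls the pair moved the same way, with replicate 1 above the mean by 0.53 for scpl35 and by 0.59 for scpl46, though the scpl46 values there are under 21.75. Replicate 1 was also the brightest of the 3 day controls before normalization, with a trimmed mean of 121.2 against 90.14 and 101.0.

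**Figure D2:**
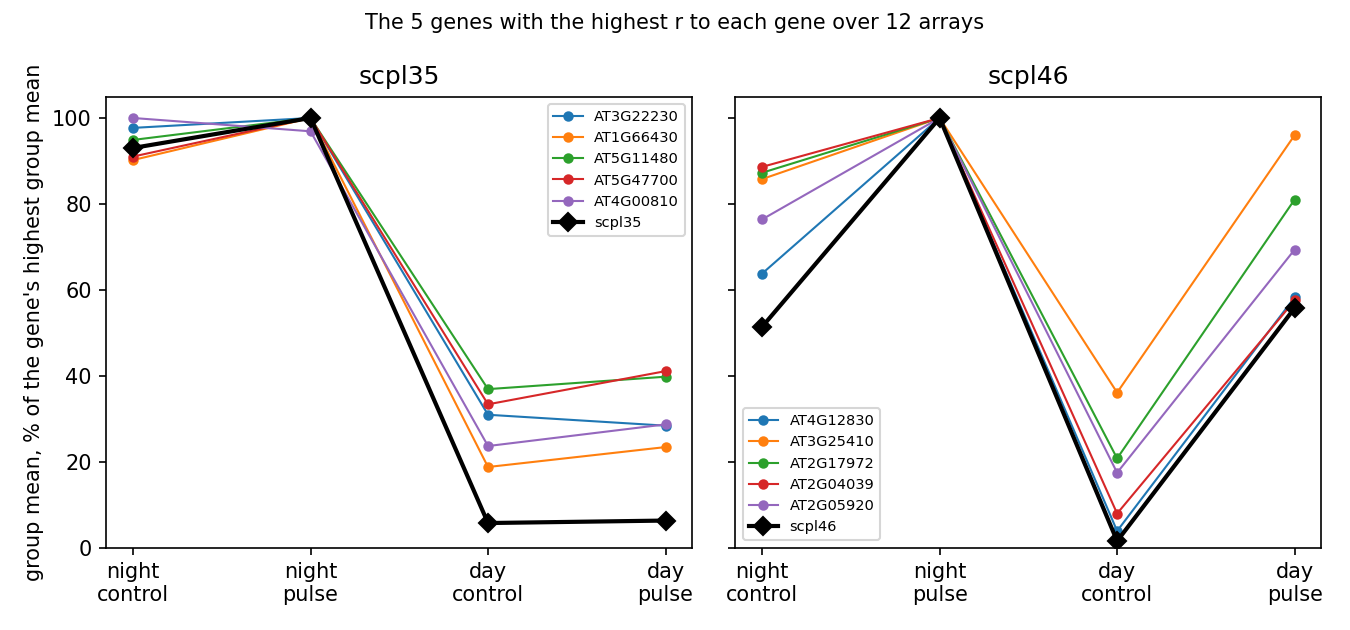
Group means of scpl35 (left, black) and scpl46 (right, black) with the 5 genes of highest Pearson r to each over the 12 arrays, each gene in % of its own highest group mean. The scpl35 set is high in both night groups and low in both day groups; the scpl46 set is lowest in the day control, with the night control and day pulse also under the night pulse.

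The genes whose signal followed each of the pair most closely were picked by Pearson r of log2 signal over the 12 arrays among 7306 other probe sets with 1 named gene. For scpl35 they were AT3G22230, AT1G66430, AT5G11480, AT5G47700 and AT4G00810, with r of 0.986 to 0.988. Their night to day contrasts were shallower. AT1G66430 had group means of 350 in the night control and 72.8 in the day control, and 388 and 90.8 after the pulses. AT3G22230 went from 1270 to 402 between the controls, where scpl35 went from 613 to 37.7.

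For scpl46 the closest were AT4G12830 at an r of 0.995, AT3G25410 at 0.988, AT2G17972 at 0.986, AT2G04039 at 0.982 and AT2G05920 at 0.981. AT4G12830 had group means of 254 in the night pulse, 162 in the night control, 148 in the day pulse and 9.84 in the day control. Its day control mean, like that of scpl46, was under 21.75. AT3G25410 had the same order of dark controls with a shallower dip, 193 at night and 81.2 in the day. The 12 arrays share the 4 groups, so high r is common among genes that differ between groups.

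**Figure D3:**
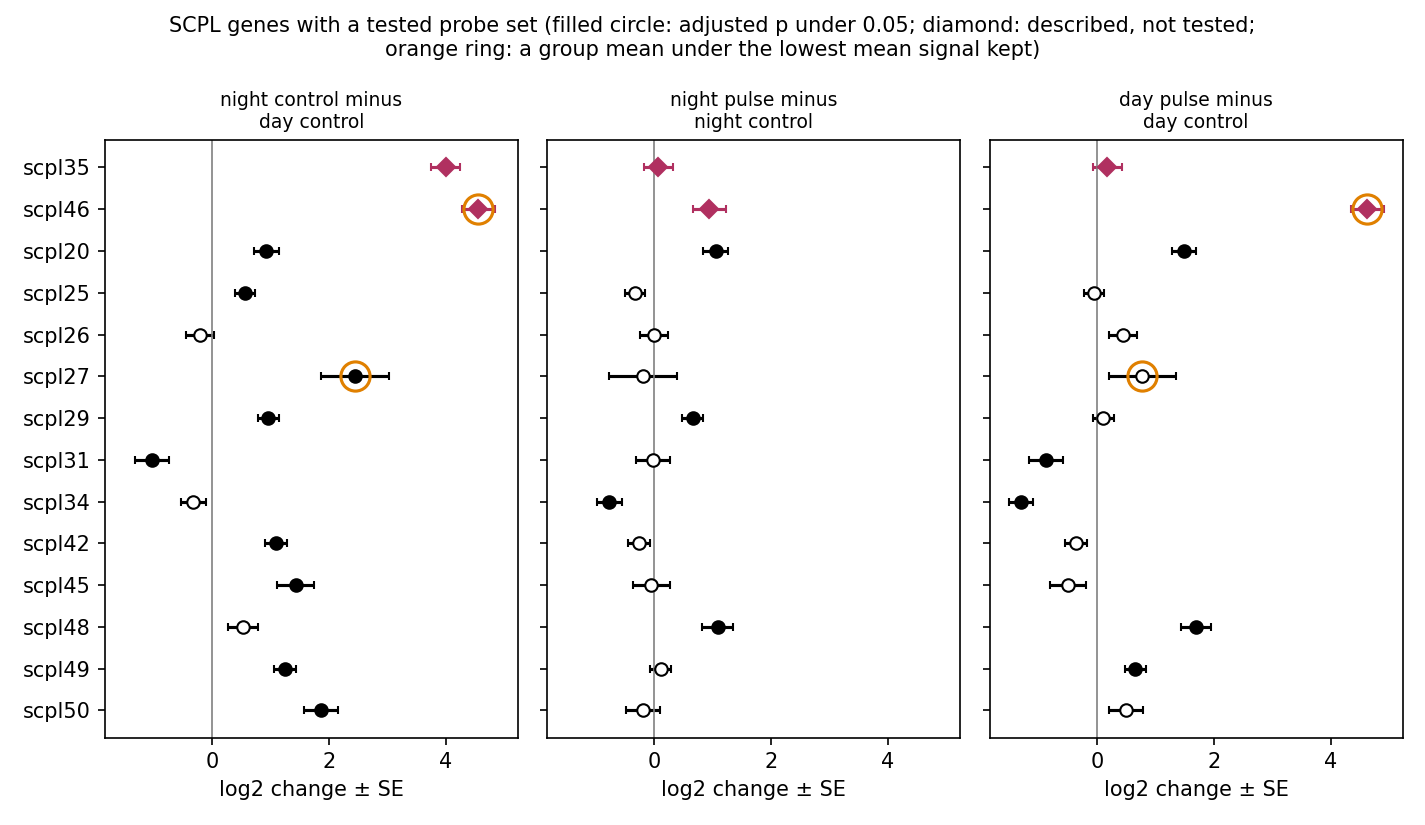
Log2 differences ± SE for scpl35 and scpl46 (diamonds, described without a test) and the 12 other SCPL genes tested (circles, filled where limma's adjusted p was under 0.05), in 3 comparisons of 3 arrays against 3. The pair stands at 4.0 and 4.56 for the dark controls, where the other genes run from -1.03 to 2.45, and scpl46 at 4.63 after the day pulse, where the others run from -1.30 to 1.70. Orange rings mark differences against a group mean under 21.75, whose size is treated as not measured. With signals raised to 21.75, scpl46 stands at 2.46 and 2.54 and the others reach 1.87 and 1.70.

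The family list holds 51 SCPL genes, 29 of which had a probe set of their own. Besides scpl35 and scpl46, 12 passed the filter and were tested, and 15 did not, 13 of these with every group mean under 21.75. SNG1, SNG2 and BRS1 are among the 22 not analysed here. Calls are limma's two-sided test with a Benjamini-Hochberg adjusted p under 0.05 over all 13647 probe sets.

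In the dark, 8 of the 12 other SCPL genes were higher at night than in the subjective day and 1 was lower, with a median log2 difference of 0.95 (0.94 with signals raised to 21.75) against 0.02 over all probe sets. Of all probe sets, 48.4% were called, 25.7% higher and 22.6% lower. This balance depended on the scaling: the calls were 3511 higher and 3091 lower as normalized, 4566 and 1062 without normalization, and 2730 and 4237 with median centring. The other SCPL genes then had 9 higher and 0 lower, and 7 higher and 2 lower. Scpl49 was 681 ± 67.7 at night and 285 ± 38.4 in the day (1.25 ± 0.18, adjusted p = 7.75e-05), and scpl50 122 ± 15.7 and 34.4 ± 18.8 (1.87 ± 0.29, adjusted p = 0.000151). Scpl31 was lower at night, by -1.03 ± 0.29, a call lost without night control replicate 2 (adjusted p = 0.0527) and without normalization (0.376). The scpl25 call was lost without night control replicate 1 (0.0513) and with median centring (0.393).

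After the day pulse scpl20, scpl48 and scpl49 rose and scpl34 and scpl31 fell, 5 of 12, where 42.7% of all probe sets were called, 21.0% higher and 21.8% lower. Median centring turned these 2864 higher and 2969 lower calls into 2203 and 4295. Scpl48 rose from 95.5 ± 15.2 to 320 ± 88.9 (1.70 ± 0.26, adjusted p = 0.000151), and scpl34 fell from 375 ± 57.3 to 154 ± 44.1 (-1.30 ± 0.21, adjusted p = 0.000272). Scpl31 lost its call without day pulse replicate 3 (0.11) or day control replicate 2 (0.111) or 3 (0.0509), or without normalization (0.201), with no filter (0.0602), with only the groups compared (0.0574) or without both arrays of high GAPDH ratio (0.0688). Scpl49 lost its call without normalization (0.11), with median centring (0.263) or with only the groups compared (0.0509). After the night pulse 4 of 12 were called, against 12.9% of all probe sets (6.07% higher and 6.82% lower), with scpl20, scpl29 and scpl48 higher and scpl34 lower. Over all probe sets the 829 higher and 931 lower calls became 427 and 242 without normalization. Scpl20 rose from 83.7 ± 26.1 to 170 ± 8.62 (1.05 ± 0.21, adjusted p = 0.00414). The count fell to 1 when replicate 3 of the night pulse or replicate 2 of the night control was left out, to 2 when replicate 1 or 2 of the night pulse or replicate 3 of the night control was, and to 0 without normalization.

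None of the 12 other SCPL genes was called by limma for the difference between the pulse effects, where 12.7% of all probe sets were (5.20% higher and 7.47% lower), and 1 had an unadjusted p under 0.05. With median centring 2 were called, both higher, as the calls over all probe sets went from 709 higher and 1019 lower to 2037 and 691. The fitted differences of the 12 genes ran from -0.97 to 0.84, beside -3.70 for scpl46 and -0.11 for scpl35. With signals raised to at least 21.75 the 12 genes ran from -0.68 to 0.82, beside -1.60 for scpl46 and -0.11 for scpl35. One gene was called without day pulse replicate 1 (scpl29, 0.75, adjusted p = 0.0291) and 1 without day control replicate 1 (scpl50, -1.08, adjusted p = 0.0216).

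Of 13 listed vacuolar proteases of other families, 9 had a probe set of their own and 7 were tested. SAG12, AALP, RD21A and RD19 were among those without one. Of the 7 tested, 5 were lower at night than in the subjective day in darkness and none was higher, where 22.6% of all probe sets were lower. This was the opposite side from scpl35 and scpl46. GAMMA-VPE, a vacuolar processing enzyme, was 293 ± 27.0 and 904 ± 34.2 (-1.62 ± 0.14 by limma). Without normalization the calls between the controls were lost for the cathepsin B-like proteases AT4G01610 (adjusted p = 0.113) and AT1G02300 (0.0733) and for the aspartic protease APA1 (0.175), which left 2 lower. After the day pulse 3 of the 7 fell and none rose, against 21.8% of all probe sets lower, and the GAMMA-VPE call among them was lost without normalization (0.101). The replicate number as a block added AT4G01610 there (adjusted p = 0.0144), for 4 of 7, and APA1 was called higher in 4 of the other alternatives. After the night pulse 1 fell, AT1G02300, against 6.82% of all probe sets lower. Its call did not survive leaving out night pulse replicate 1 (adjusted p = 0.0987) or replicate 3 (0.117). It was also lost on leaving out replicate 2 (0.131) or 3 (0.0904) of the night control and on dropping normalization (0.192). AT1G02305, another cathepsin B-like protease, was called lower in addition in 6 of the alternatives, among them the replicate block (adjusted p = 0.0394), which gave 2 of 7.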

How the data were processed

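The deposited table gives 1 linear intensity per probe set and array for 12 ATH1 arrays, and the authors used MAS5, per the submitters' processing notes, whose settings the sources used here do not give. Trimmed means differed between arrays, so the arrays had not been brought to a common trimmed mean. Whether another scaling had been applied is not known here. Of 22810 probe sets, 64 controls were left out. The annotation named 1 gene for 13513 of the rest, and 13436 of these matched TAIR10.1 by identifier.

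Intensities were raised by an offset of 2 (the 10th percentile of all values), taken to log2 and quantile normalized. Normalized signals are these values on a linear scale, less 2. Probe sets with a mean above the 40th percentile, 13647 in all, were fitted with limma 3.58.1 in R 4.3.3 (4 group means, eBayes with a trend). The fit was tested on simulated normalized data with changes set in the day pulse group, 100 of each size. It recovered 70% of changes of 1.5 on the log2 scale and 97% of changes of 3, and called 13 unchanged probe sets. All other simulated probe sets had no difference between groups, whereas 42.7% of probe sets were called for the day pulse in the data. The share recovered in the data may therefore differ. Smaller changes were not simulated, so a gene without a call may still have changed. Since the labels do not name separate plants or cultures, p-values reflect only array-to-array spread, which may be technical. Precision is limited by how few arrays each group has.

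The pair and the lists were chosen with earlier results of these data known. Named SCPL genes are up to 4 with the smallest p in each contrast, others being named for lost calls. Named proteases are from up to 3 with the smallest p, and the likeness rule took the 5 highest r. The alternatives were other scalings and offsets, no filter, no trend, array weights, only the groups compared, the replicate number as a block, raised dim signals and arrays left out. Phloem and xylem markers had no probe set of their own. The guard cell marker FAMA had means of 56.0 to 90.2.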

Additional observations from a re-analysis of the deposited data

How the results depend on the processing

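No alternative changed the direction of a scpl46 difference, or of the scpl35 difference between the dark controls. With no normalization the log2 difference between the dark controls was 4.54 for scpl35 and 4.96 for scpl46. Median centring gave scpl46 a difference between pulse effects of -3.31. With an offset of 16, scpl46 had 2.95 after the day pulse, -2.08 between the pulse effects and 2.88 between the controls, and scpl35 3.57 between the controls. Array weights gave scpl46 5.21 after the day pulse and -4.22 between the effects, and scpl35 -0.55 between the effects and 4.33 between the controls. Raising dim signals gave scpl46 2.54, -1.60 and 2.46. Low signals limit scpl46 in the day controls to a bound.

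Without normalization 669, 3721 and 439 probe sets were called for the night pulse, the day pulse and the difference between them (427 higher and 242 lower, 2151 higher and 1570 lower, and 193 higher and 246 lower). Median centring called 2728 for the difference (2037 higher and 691 lower, against 709 and 1019), and array weights 3513 for the night pulse and 5308 for the difference. Without normalization, 0 of the other SCPL genes were called for the night pulse and 3 for the day pulse. There were 3 for the day pulse with only the groups compared, and for the difference 2 with median centring, 3 with array weights and 1 with day pulse replicate 1 and day control replicate 2 both left out. With 1 array left out the calls ran from 1103 to 2296 for the night pulse and from 1135 to 2660 for the difference, and among the other SCPL genes from 1 to 4 and from 0 to 1. The causes were not tested.

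Same-numbered arrays of different groups had correlations of their deviations from -0.1082 to 0.4462, over 0.1 in 8 of 18 pairs and the own number gave the highest of 3 in 20 of 36 cases. Not every pair was over 0.1, so the numbers were not taken to pair the arrays, though shared handling of some is not settled by these values. With the replicate block 1964, 6214, 2019 and 6928 probe sets were called for the night pulse, the day pulse, the difference and the controls, against 1760, 5833, 1728 and 6602, and the other SCPL genes called numbered 4, 5, 0 and 9 in both fits. The proteases called numbered 2, 4, 0 and 5 with the block, against 1, 3, 0 and 5.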
